A study of Homo sapiens with 11 samples.

Results

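Keratins are the proteins of the epithelial intermediate filaments, and the family comprised 55 of the 60605 features listed for the ARPE-19 libraries examined here. Members were all rows with a symbol made of KRT, a number and at most 1 letter, without those ending in P, which are pseudogenes. They were grouped as 18 type I keratins, 20 type II keratins and 17 hair keratins, the last holding type I and type II proteins of the hair shaft and nail. A keratin filament is built from obligate pairs of an acidic type I and a basic type II protein, and the pair in use differs by epithelium: KRT8 with KRT18 in simple epithelia, KRT5 with KRT14 in the basal layer of stratified epithelia, KRT4 with KRT13 in mucosa. KRT6 and KRT16 are known for wounded and fast-dividing skin. The retinal pigment epithelium (RPE), a single layer of pigmented cells behind the photoreceptors, is known to use keratins of the simple epithelial kind, and cultured RPE cells keep them.

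Polyadenylated RNA was sequenced from ARPE-19, an established human line of RPE cells, in stable lines after 4 days of expression of an open reading frame (ORF). The control expressed GFP, a fluorescent protein (n = 3 libraries). The factor lines expressed Oct4, Sox2 or Klf4, transcription factors used in cell reprogramming, or all of them together (OSK), with n = 2 libraries each. Every group is ARPE-19 and none was left without an ORF. The labels do not state the vector or its promoter, the species of the ORFs, whether a line is a single clone, or the meaning of "mC" in the library names of the factor lines. They do not say that replicates were separate cultures, so p-values measure only the spread between these libraries, which may be technical. Values are normalised counts, which are the authors' read counts divided by 1 factor per library. Each line was compared with GFP in 1 limma fit over 18828 features on log2(value + 1), with p-values adjusted over all of them and called under 0.05. All comparisons with GFP share the same 3 control libraries. RNA from a bulk culture cannot tell fewer cells of a type from less RNA per cell.

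Recovered reads ran from 15053300 to 19791775 per library. GFP replicate 1 and OSK replicate 1 stood apart from the other 9 libraries: 42956 and 32493 features had a read, against 25853 to 26971. In these libraries 67.7% and 23.0% of 405 listed olfactory receptor genes had a read, against 4.94% to 8.15% in the others. Keratins followed this, with a read in 52 and 40 of the 55 members, against 20 to 29. Low keratin values in GFP replicate 1 are therefore given beside those of the other GFP libraries throughout. Each delivered gene was highest in the lines labelled for it: POU5F1, the gene of Oct4, had 276, 252 and 262 normalised counts in GFP, 67326 and 66823 with Oct4 and 19020.3 and 19542 with OSK. SOX2 had 29106 and 29141 in its own line and 17764 and 17582 with OSK, and KLF4 had 24205 and 22142 and 24469.8 and 24202, against at most 124 for either in GFP. Of 17 RPE markers 13 could be tested, and their sum was 13069 to 16659 normalised counts per GFP library. The visual cycle enzyme RPE65, a defining marker of native RPE, was between 0 and 4.63 in all 11 libraries.

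The keratins KRT7, KRT8, KRT18 and KRT80 held most keratin counts in every line, least so with OSK, where the mean of KRT13 (3372 normalised counts) exceeded that of KRT18 (3224). These 4 made up 94.5, 95.0 and 94.7% of all keratin counts in the GFP libraries, 96.0 and 95.6% with Oct4, 96.9 and 97.2% with Sox2 and 92.6 and 92.0% with Klf4, but 74.4 and 78.5% with OSK. All keratins together took 0.304, 0.355 and 0.341% of the counts of the GFP libraries and 0.348 and 0.335% with Klf4. Their share was 0.171 and 0.168% with Oct4, 0.198 and 0.202% with Sox2 and 0.200 and 0.182% with OSK, so that these 6 libraries lay below the other 5. With Klf4 KRT13, KRT16 and KRT4, genes of stratified epithelia, were higher than in GFP. KRT14 was also high with Klf4, but it entered the test only through Klf4 and GFP replicate 1. With OSK KRT13 was higher together with the hair keratins KRT33B and KRT34. The hair keratin KRT38 was lower in each of the 4 lines than in GFP.

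A level high enough to test, set at 10 or more normalised counts in any 2 libraries, was reached by 21 keratins: 9 of type I, 4 of type II and 8 hair keratins. Of these 12 reached 10 in every group and 9 did not, so that a low group could itself be the reason for a call. Against GFP, 9 of the 21 were called with Oct4, all lower, where 37.3% of all tested features were called. With Sox2 12 were called, 1 higher and 11 lower, against a background of 41.6%. With Klf4 13 were called, 7 higher and 6 lower, against 33.5%. With OSK 14 were called, 4 higher and 10 lower, against 39.7%. By direction the backgrounds were 20.1% higher and 17.2% lower with Oct4, 21.7% higher and 19.9% lower with Sox2, 17.6% higher and 16.0% lower with Klf4, and 19.7% higher and 20.0% lower with OSK. Without GFP replicate 1 the Oct4 calls were not all lower, as KRT16 was then called higher (log2 change 2.03, limma adjusted p = 0.0198). The median log2 change of the 21 was -0.74 with Oct4, -1.27 with Sox2, 0.33 with Klf4 and -0.54 with OSK, while that of all tested features lay between -0.02 and -0.01.

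**Figure D1:**
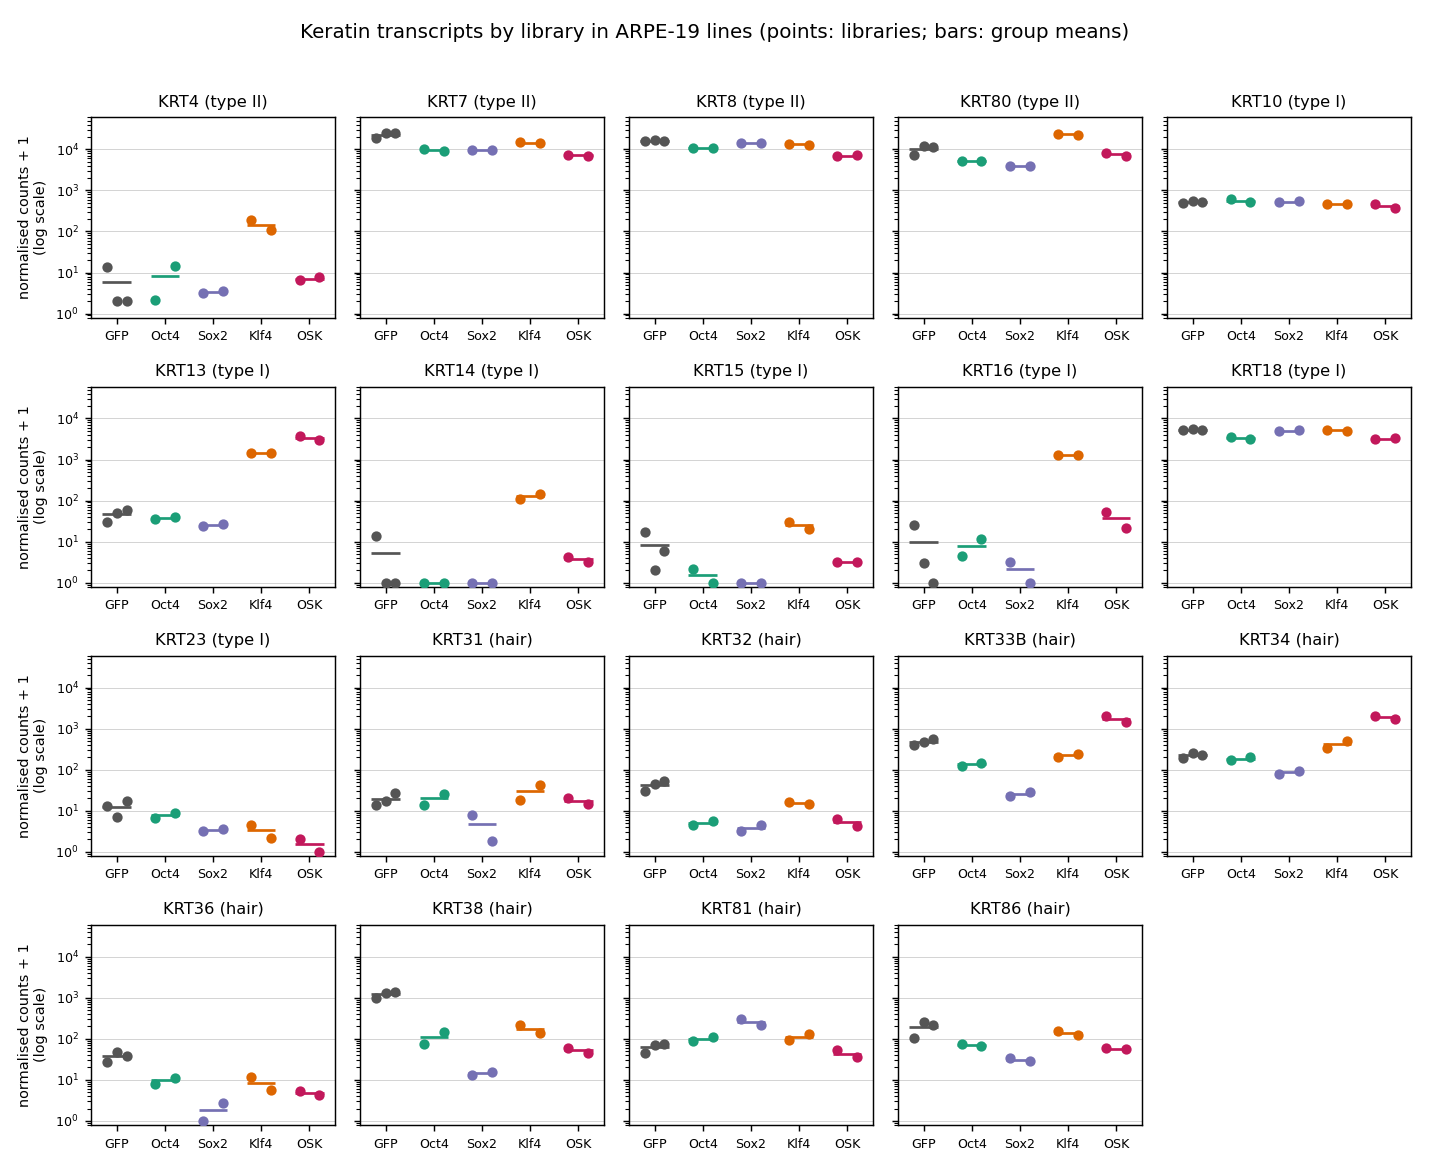
Normalised counts plus 1 (vertical log axis) of 19 keratins in each of the 11 libraries, with 1 panel per gene; points are libraries and bars are group means. KRT7, KRT8, KRT18 and KRT80 lie at 3097 or more in every library, whereas KRT13 lies at 1422 or more with Klf4 and OSK, KRT16 at 1289 or more with Klf4, and KRT33B and KRT34 at 1441 or more with OSK.

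The simple epithelial keratins KRT7, KRT8 and KRT18 were abundant everywhere. KRT7 and KRT8 were lowest with OSK, and KRT18 was lowest with OSK and Oct4, which overlapped. KRT7 (chr12:52232520-52252186 on GRCh38, plus strand), a type II keratin of simple and glandular epithelia, had 18494, 25066 and 24449.6 normalised counts in the GFP libraries, 10316 and 9368 with Oct4, 9440.2 and 9696 with Sox2, 14939 and 14298 with Klf4, and 7197 and 7034 with OSK. All 8 libraries of the factor lines lay below all 3 GFP libraries. The log2 change was -1.19 with Oct4, -1.23 with Sox2, -0.62 with Klf4 and -1.66 with OSK, with an SE of 0.10. The adjusted p of limma was 1.99e-07 (Oct4), 1.01e-07 (Sox2), 0.000232 (Klf4) and 4.25e-09 (OSK). Per kilobase of exon KRT7 was the highest keratin in GFP, Oct4 and Sox2 (5539, 2405 and 2338 normalised counts per kb). With OSK it was level with KRT80 (1738 and 1736), and with Klf4 it stood at 3572, below KRT80 at 5405. In plain normalised counts KRT8 had a higher mean than KRT7 with Oct4 (10738 against 9842) and Sox2 (14283 against 9568). The rank of KRT7 in those lines rests on exon length, with merged exons of 6881 bases for KRT8 and 4093 for KRT7.

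KRT8 (chr12:52897187-52949954, minus strand), the type II partner in the primary keratin pair of simple epithelia, had 15568, 16617 and 15605 normalised counts in the GFP libraries, 10647 and 10829.6 with Oct4, 14086 and 14479.9 with Sox2, 13573 and 12766 with Klf4, and 6803 and 7222 with OSK. The groups did not overlap between GFP and any line. KRT8 fell with Oct4 (log2 change -0.57, SE 0.07, adjusted p = 4.94e-06 in limma) and more with OSK (log2 change -1.18, SE 0.07, adjusted p = 1.22e-09 in limma). The Klf4 change was small and was not called without Klf4 replicate 2 (log2 change -0.27, SE 0.07, adjusted p = 0.00446 in limma, against -0.23, limma adjusted p = 0.0658). With Sox2 it was -0.16, limma adjusted p = 0.0718, and -0.17 without GFP replicate 1 (limma adjusted p = 0.0226).

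KRT18 (chr12:52948871-52952901, plus strand), the type I partner of KRT8, had 5137, 5682 and 5100.5 normalised counts in the GFP libraries, 3452 and 3176 with Oct4, 4898 and 5131 with Sox2, 5368 and 4829.9 with Klf4, and 3097 and 3351 with OSK. The Oct4 and OSK libraries lay below all others and did not separate from each other. Its log2 change was -0.68 with Oct4 and -0.72 with OSK, each with an SE of 0.07 (limma adjusted p of 2.4e-06 for Oct4 and 1.18e-06 for OSK). No change passed with Sox2 (-0.08, limma adjusted p = 0.424) or Klf4 (-0.06, limma adjusted p = 0.598). KRT8 and KRT18 are neighbours whose annotated spans overlap by 1084 bases on opposite strands, and 14.3% of the 50-base transcript sequences of KRT18 and 10.1% of those of KRT8 also occur in another gene. Whether the counting used strand is not stated, so reads of the shared stretch could belong to either gene. KRT19, a small type I keratin of simple epithelia, lay between 5.99 and 44.6 and was called in no line.

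Among the keratins of stratified epithelia KRT80 was the most abundant. KRT80 (chr12:52168996-52192000, minus strand), a type II keratin linked to epithelial differentiation, had 7484, 12095 and 11702 normalised counts in the GFP libraries, 5231 and 5303 with Oct4, 3971 and 3987 with Sox2, 24023 and 23002 with Klf4, and 8225 and 6879.9 with OSK. Both Klf4 libraries lay far above every other library, and both Sox2 libraries below. KRT80 rose with Klf4 (log2 change 1.21, SE 0.15, adjusted p = 1.01e-05 in limma, 2.26-fold in mean counts) and fell with Oct4 (log2 change -0.95, SE 0.15, adjusted p = 8.88e-05 in limma) and Sox2 (log2 change -1.36, SE 0.15, adjusted p = 1.69e-06 in limma). The OSK libraries overlapped GFP (log2 change -0.44, SE 0.15, adjusted p = 0.0266 in limma), and that call was lost without GFP replicate 2, GFP replicate 3 or OSK replicate 2 (limma adjusted p = 0.108, 0.109 and 0.257).

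KRT10, the type I keratin of the suprabasal epidermis, had 504, 554 and 531 normalised counts in the GFP libraries, 614 and 516 with Oct4, 525 and 543 with Sox2, 463 and 479 with Klf4, and 456 and 369.6 with OSK. Only the OSK change was called (log2 change -0.37, SE 0.10, adjusted p = 0.0101 in limma), and not without OSK replicate 2 (-0.21, limma adjusted p = 0.207). KRT14, the type I keratin of the basal epidermis, had 12.9, 0 and 0 normalised counts in the GFP libraries, 0 and 0 with Oct4, 0 and 0 with Sox2, 111 and 147 with Klf4, and 3.25 and 2.20 with OSK. Its type II partner KRT5 had at most 1.16 normalised counts in the 9 libraries other than GFP replicate 1 and OSK replicate 1. KRT14 reads were thus clear in the Klf4 line alone, and the GFP mean rests on GFP replicate 1. It entered the test only through both Klf4 libraries and GFP replicate 1, so Klf4 had to be high. Its call, 1 of the 7 higher with Klf4, is therefore no result. The fitted log2 change with Klf4 was 5.74 (SE 1.05), and 5.11 without GFP replicate 2 or 3. Without GFP replicate 1 the level was at least 43.4-fold above GFP. DESeq2 on the recovered reads did not call the change (adjusted p = 0.24). The Oct4 and Sox2 libraries held no read of KRT14, so Klf4 was at least 37.4-fold and 43.5-fold above them.

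KRT15, another basal type I keratin, had 15.9, 1.01 and 4.86 normalised counts in the GFP libraries, 1.16 and 0 with Oct4, 0 and 0 with Sox2, 28.9 and 19.4 with Klf4, and 2.17 and 2.20 with OSK. Both Klf4 libraries lay above all GFP libraries, with GFP replicate 1 close below, and the change with Klf4 passed only when GFP replicate 1 was left out (2.08, limma adjusted p = 0.104, against 2.85, limma adjusted p = 0.0103). The Sox2 call (log2 change -2.55, SE 0.94, adjusted p = 0.0396 in limma) rested on low reads and was lost without GFP replicate 1 or 3, either Sox2 or Klf4 library or OSK replicate 2 (limma adjusted p from 0.0528 to 0.139). Against GFP with Oct4 it passed only without GFP replicate 2 (-2.76, limma adjusted p = 0.0317).

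Among the mucosal and wound keratins KRT13 rose with both Klf4 and OSK, and KRT4 and KRT16 were highest with Klf4. KRT13 (chr17:41500981-41505705, minus strand), the type I keratin of mucosa such as oral and esophageal lining, had 28.8, 48.6 and 59.3 normalised counts in the GFP libraries, 34.8 and 38.9 with Oct4, 22.4 and 25.7 with Sox2, 1422 and 1469 with Klf4, and 3832 and 2913 with OSK. The Klf4 and OSK libraries did not overlap any other library, and the OSK libraries lay above the Klf4 libraries. KRT13 was 31.7-fold above GFP with Klf4 (log2 change 5.02, SE 0.23, adjusted p = 1.62e-10 in limma) and 74.0-fold above with OSK (log2 change 6.23, SE 0.23, adjusted p = 1.16e-11 in limma). OSK exceeded Klf4 by 1.21 on the log2 scale (SE 0.25, limma adjusted p = 0.00202), a call lost without a filter on low values (limma adjusted p = 0.125). With Sox2 KRT13 was lower (log2 change -0.84, SE 0.23, adjusted p = 0.00696 in limma), a call lost without Sox2 replicate 1 (limma adjusted p = 0.0645). The Oct4 change was called only without GFP replicate 1 (-0.24, limma adjusted p = 0.441, against -0.53, limma adjusted p = 0.0136).

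KRT4 (chr12:52806549-52814551, minus strand), the type II partner of KRT13 in mucosa, had 12.9, 1.01 and 0.970 normalised counts in the GFP libraries, 1.16 and 13.7 with Oct4, 2.24 and 2.57 with Sox2, 189 and 105 with Klf4, and 5.42 and 6.60 with OSK. Only the Klf4 libraries stood above the rest. The fitted log2 change was 5.22 (SE 0.89, limma adjusted p = 0.000255), and without GFP replicate 1 Klf4 was at least 49.3-fold above GFP. With OSK, where KRT13 was highest, KRT4 did not pass (0.88, limma adjusted p = 0.48), and it was lower with OSK than with Klf4 (log2 change -4.34, SE 0.97, adjusted p = 0.00393 in limma). The latter call was lost without a filter on low values (limma adjusted p = 0.15) and without Klf4 replicate 1, where the change was -3.93. The levels of KRT13 and KRT4 per kilobase of exon were 496 and 44.3 normalised counts with Klf4, against 1158 and 1.81 with OSK.

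KRT16 (chr17:41609778-41615899, minus strand), the type I keratin of wounded epidermis, had 23.8, 2.02 and 0 normalised counts in the GFP libraries, 3.48 and 10.3 with Oct4, 2.24 and 0 with Sox2, 1317 and 1289 with Klf4, and 53.1 and 20.9 with OSK. Both Klf4 libraries lay far above all others, the highest of which was OSK replicate 1. Klf4 was 151-fold above GFP in mean counts (log2 change 8.27, SE 0.96, adjusted p = 5.98e-06 in limma), and at least 438-fold without GFP replicate 1. Without GFP replicate 3 the log2 change with Klf4 was 7.23. With Oct4 KRT16 was not called (log2 change 0.75). That Oct4 change was called without GFP replicate 1 (2.03, limma adjusted p = 0.0198) and was -0.28 without GFP replicate 3. The OSK libraries overlapped GFP through GFP replicate 1 (log2 change 3.03, SE 0.96, adjusted p = 0.0197 in limma). That change was 4.31 without GFP replicate 1 (limma adjusted p = 3.55e-05), and it was not called without OSK replicate 1 (2.38, limma adjusted p = 0.178), GFP replicate 2 (2.79, limma adjusted p = 0.0525) or GFP replicate 3 (1.99, limma adjusted p = 0.0814). KRT16 was lower with OSK than with Klf4 (log2 change -5.24, SE 1.05, adjusted p = 0.00176 in limma), by -5.90 without OSK replicate 1 and -4.59 without OSK replicate 2. That call was lost without a filter on low values (limma adjusted p = 0.156). Of the 50-base transcript sequences of KRT14 16.8% occur in another gene, the largest share in KRT16 (7.89%). Of those of KRT16 16.5% do, the largest share in the pseudogene KRT16P3 (9.18%). Part of the reads of both could thus belong to other genes. The type II keratins of the same wounded epidermis, KRT6A, KRT6B and KRT6C, did not reach the level for a test. KRT17, also of wounded skin, had between 0 and 32.0 normalised counts and was called in no line against GFP.

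**Figure D2:**
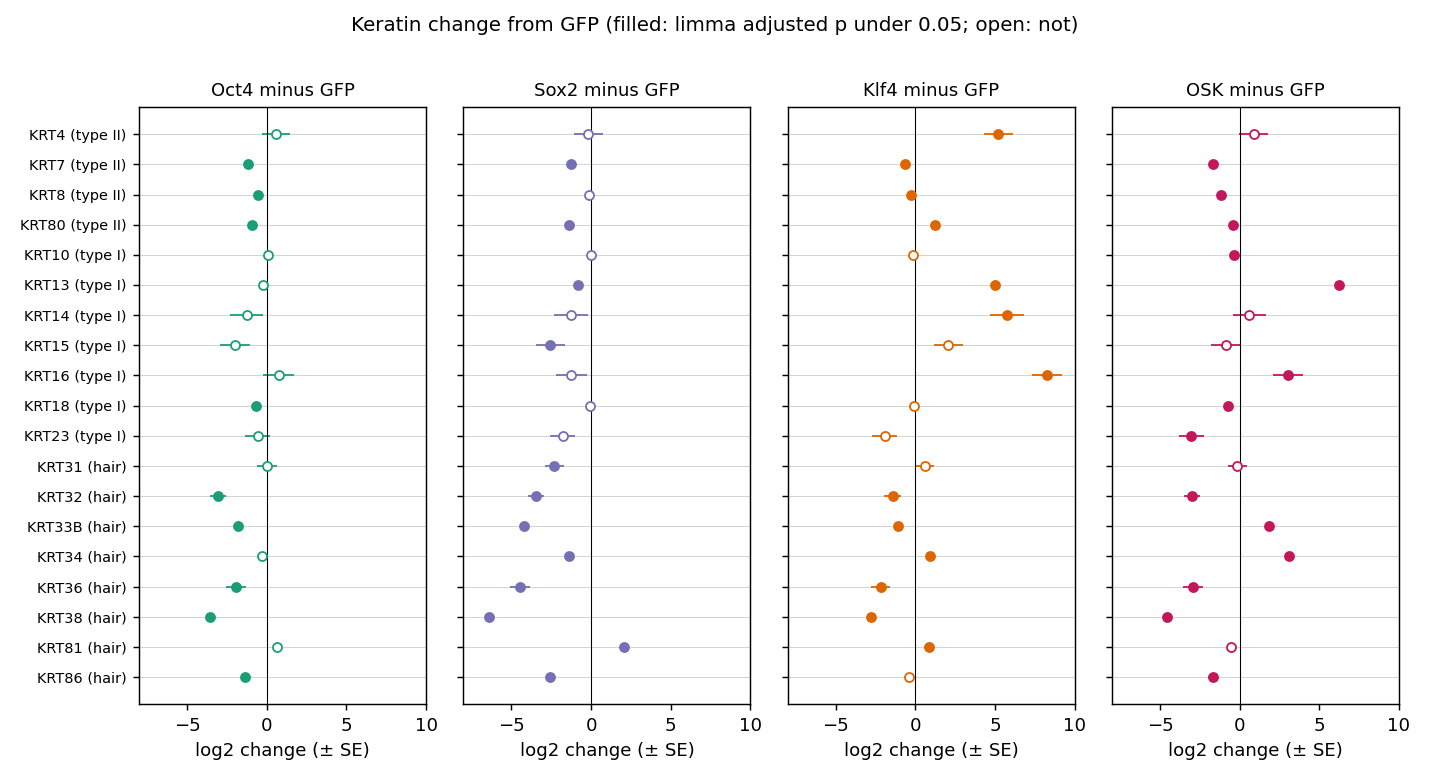
Log2 change from GFP (horizontal axis, with SE) of 19 keratins in the 4 factor lines, 1 panel per line; filled points passed limma at an adjusted p under 0.05. The largest rises are KRT16 with Klf4 (8.27) and KRT13 with OSK (6.23), and the largest fall is KRT38 with Sox2 (-6.40).

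Markers of epidermal keratinocytes were set beside these keratins. Of 17 only 4 could be tested (TGM1, FLG, SBSN and TP63). Of these 1 was higher and 2 lower with Oct4, 1 and 3 with Sox2, 3 and 1 with Klf4, and 1 and 1 with OSK. Each lower count includes TP63. Of all features 16.0% to 21.7% were called per direction, so 1 of 4 is near the background. The summed level of the whole list was 585 to 735 normalised counts in GFP, 323 to 346 with Oct4, 153 to 160.1 with Sox2, 4353 to 4673 with Klf4 and 1425 to 1823 with OSK. The Klf4 sum was mostly TGM1, a transglutaminase that cross-links the cornified envelope, with 4407 and 4088 normalised counts against 409, 668 and 596 in GFP (log2 change 2.96, SE 0.17, adjusted p = 3.45e-09 in limma). The OSK sum was mostly FLG, the gene of filaggrin, with 1312 and 1053 against 56.6, 21.2 and 20.4 (log2 change 5.29, SE 0.32, adjusted p = 2.43e-09 in limma). FLG also rose with Klf4, where it had 192 and 167 (log2 change 2.58, SE 0.32, adjusted p = 1.03e-05 in limma). Its changes with Oct4 and Sox2 were 1.11 for Oct4 and 1.07 for Sox2 (limma adjusted p of 0.0116 and 0.0124), and both calls were lost without GFP replicate 3, that of Oct4 without either Oct4 library and that of Sox2 without Sox2 replicate 1. SBSN, a secreted protein of the suprabasal epidermis, had 46.3 and 53.7 with Klf4 against 27.8, 6.07 and 3.89 in GFP (log2 change 2.35, SE 0.73, adjusted p = 0.0207 in limma), a call lost without GFP replicate 2 or 3 or either Klf4 library. Of the 13 markers that could not be tested, KLK5, with 8.10 and 18.3, was the highest with Klf4, and others were at or near 0: LORICRIN, SPRR1A, SPRR1B, SPRR2A and SPRR3 had no read there, and IVL had 3.47 and 4.57. TP63, the master regulator of stratified epithelia, had 22.8, 34.4 and 29.2 in GFP and between 2.17 and 9.42 in the factor lines. It entered the test through the GFP libraries alone, so it had to be lower elsewhere, and its calls are no result. The fitted log2 changes were -2.26 for Oct4, -1.62 for Sox2, -2.01 for Klf4 and -2.49 for OSK. The Klf4 call was lost without Klf4 replicate 2 (limma adjusted p = 0.0661) and the Sox2 call without GFP replicate 2 or 3 or either Sox2 library. The OSK change was -1.76 without OSK replicate 1 and -3.21 without OSK replicate 2. The part of these markers in the keratin results was not tested.

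The hair keratins pair in the hair shaft, and their log2 changes from GFP ran from -6.40 (KRT38 with Sox2) to 3.10 (KRT34 with OSK). Of their type I members 9, from KRT33A to KRT36, lie side by side on chromosome 17. Their promoters are given first because KRT33B and KRT34, 7849 bases apart, rose together with OSK while KRT38 fell. The sequences are RefSeq's on GRCh38.p14, all on the minus strand and printed 5′ to 3′, and end at the base before the RefSeq start, except that of KRT34, which covers bases -40 to -11. Capitals mark matches to the letters GGGNGTGG (a KLF-type motif, here seen as its reverse complement CCACACCC) and TATAAA (the TATA box).
KRT33B (chr17:41369814-41370063): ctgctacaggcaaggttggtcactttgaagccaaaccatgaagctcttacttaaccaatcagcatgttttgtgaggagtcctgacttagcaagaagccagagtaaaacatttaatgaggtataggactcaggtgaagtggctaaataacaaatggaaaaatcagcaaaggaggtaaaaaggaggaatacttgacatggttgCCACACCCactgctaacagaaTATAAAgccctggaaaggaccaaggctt
KRT31 (chr17:41397609-41397858): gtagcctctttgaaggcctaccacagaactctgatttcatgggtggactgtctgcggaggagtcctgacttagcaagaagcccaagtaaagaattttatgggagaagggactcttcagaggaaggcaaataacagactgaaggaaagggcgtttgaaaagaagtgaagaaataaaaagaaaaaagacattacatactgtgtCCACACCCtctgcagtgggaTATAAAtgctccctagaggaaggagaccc
KRT38 (chr17:41440984-41441233): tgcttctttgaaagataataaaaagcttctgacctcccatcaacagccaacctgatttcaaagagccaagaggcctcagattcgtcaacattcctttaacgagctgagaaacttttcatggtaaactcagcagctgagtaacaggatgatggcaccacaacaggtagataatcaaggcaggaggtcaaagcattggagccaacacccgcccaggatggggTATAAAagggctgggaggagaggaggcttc
KRT34 (chr17:41382317-41382346, 30 bases only): aattaatggTATAAAaggactgcagaggaa

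All of these hold TATAAA, from base -28 to -23 in KRT33B, -29 to -24 in KRT31, -30 to -25 in KRT38 and -31 to -26 in KRT34, counted back from the RefSeq start. For KRT34 that start and the printed stretch lie inside the gene span annotated by GENCODE (chr17:41377650-41382403). The KLF-type letters stand at bases -49 to -42 in KRT33B and in KRT31 and at -50 to -43 in KRT33A, and were not found in the 250 bases before KRT34 or KRT38. KRT33B and KRT31 thus share these letters at the same distance, although KRT33B rose with OSK and KRT31 did not. Promoters were listed for 34 of the 55 keratins, and for 19 of the 34 the bases after the RefSeq start were found in a GENCODE transcript of the gene. Of the 34 promoters 20 (58.8%) hold TATAAA, against 11.1% of all 27305 promoters of that length, and 6 hold GGGNGTGG, against 15.3%. The octamer ATGCAAAT was in none of the 34 and in 1.66% of all promoters, and the SOX-type letters CATTGT were in 4 of the 34 and in 9.45% of all. Both strands were searched and no match of one motif overlapped another. Such matches are a description of letters and were not tested for binding.

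KRT38 (chr17:41436446-41440921) was the main hair keratin of the control. It had 995, 1318 and 1362 normalised counts in the GFP libraries, 73.2 and 144 with Oct4, 12.3 and 14.6 with Sox2, 213 and 141 with Klf4, and 58.5 and 44.0 with OSK. No library of a factor line came near the GFP range, and the Sox2 libraries were the lowest. KRT38 was 11.3-fold lower with Oct4 (log2 change -3.55, SE 0.25, adjusted p = 2.12e-08 in limma), 91.1-fold lower with Sox2 (log2 change -6.40, SE 0.25, adjusted p = 1.85e-11 in limma), 6.93-fold lower with Klf4 (log2 change -2.80, SE 0.25, adjusted p = 4.26e-07 in limma) and 23.9-fold lower with OSK (log2 change -4.55, SE 0.25, adjusted p = 1.2e-09 in limma). KRT38 held 53.3, 53.2 and 53.4% of the hair keratin counts in GFP and 1.36 and 1.31% with OSK.

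KRT33B (chr17:41363494-41369800) took the opposite course in OSK from that in the single-factor lines. It had 392, 476 and 544 normalised counts in the GFP libraries, 124 and 143 with Oct4, 21.3 and 28.3 with Sox2, 207 and 238 with Klf4, and 2021 and 1441 with OSK. All 6 single-factor libraries lay below GFP, and both OSK libraries lay above it. It fell with Oct4 (log2 change -1.80, SE 0.17, adjusted p = 4.99e-07 in limma), Sox2 (log2 change -4.19, SE 0.17, adjusted p = 2.38e-11 in limma) and Klf4 (log2 change -1.07, SE 0.17, adjusted p = 0.00014 in limma) and rose 3.67-fold with OSK (log2 change 1.87, SE 0.17, adjusted p = 2.94e-07 in limma). OSK stood 3.67, 6.06 and 2.94 above Oct4, Sox2 and Klf4 on the log2 scale (SE 0.19, limma adjusted p at most 1.81e-08). It exceeded the summed log2 changes of the single factors (8.93, SE 0.34, limma adjusted p = 7.83e-11). Of its 50-base transcript sequences 27.7% occur in another gene, mostly its near copy KRT33A, which had at most 3.25 normalised counts in any library.

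KRT34 (chr17:41377650-41382403), the next gene, had 187, 252 and 231 normalised counts in the GFP libraries, 168 and 200.3 with Oct4, 78.5 and 94.2 with Sox2, 346 and 499 with Klf4, and 2081 and 1759 with OSK. The OSK libraries were the highest, then Klf4, and the Sox2 libraries were below all others. KRT34 was 8.60-fold above GFP with OSK (log2 change 3.10, SE 0.16, adjusted p = 6.33e-10 in limma) and also rose with Klf4 (log2 change 0.90, SE 0.16, adjusted p = 0.000447 in limma), while it fell with Sox2 (log2 change -1.36, SE 0.16, adjusted p = 5.21e-06 in limma). The Oct4 change was -0.27, limma adjusted p = 0.219. OSK stood 2.20 above Klf4 (SE 0.18, limma adjusted p = 2.33e-07), and above the summed changes of the single factors (3.82, SE 0.33, limma adjusted p = 2.35e-07). KRT33B and KRT34 together made up most of the hair keratin counts with OSK, 46.9 and 42.9% for KRT33B and 48.3 and 52.4% for KRT34, against 21.0, 19.2 and 21.4% for KRT33B and 10.0, 10.2 and 9.08% for KRT34 in GFP.

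The remaining type I hair keratins were low. KRT32 had 29.8, 43.5 and 50.5 normalised counts in the GFP libraries, 3.48 and 4.58 with Oct4, 2.24 and 3.42 with Sox2, 15.0 and 13.7 with Klf4, and 5.42 and 3.30 with OSK. It was lower than GFP in all 8 libraries, with log2 changes of -3.05 for Oct4, -3.45 for Sox2 and -2.98 for OSK (SE 0.51). The adjusted p of limma was 0.000173 (Oct4), 4.09e-05 (Sox2) and 0.000186 (OSK). The Klf4 call (-1.43, limma adjusted p = 0.04) was lost without GFP replicate 2 or 3 or either Klf4 library (limma adjusted p from 0.11 to 0.165). KRT36 had 25.8, 45.5 and 36.9 normalised counts in the GFP libraries, 6.97 and 10.3 with Oct4, 0 and 1.71 with Sox2, 10.4 and 4.57 with Klf4, and 4.34 and 3.30 with OSK, again below GFP in every library of the factor lines. With Sox2 it was at least 12.2-fold lower, with 0 and 2 reads. The fitted value moved with either Sox2 library, from -5.18 to -3.74. With OSK the log2 change was -2.92, limma adjusted p = 0.0013. The Oct4 and Klf4 calls (-1.93, limma adjusted p = 0.0226, and -2.18, limma adjusted p = 0.0126) were each lost without GFP replicate 2 (limma adjusted p = 0.0847 and 0.0551). The Oct4 call was also lost without GFP replicate 3 or either Oct4 library (limma adjusted p from 0.0639 to 0.151), and the Klf4 call without Klf4 replicate 2 (limma adjusted p = 0.139). KRT31 had 12.9, 16.2 and 26.2 normalised counts in the GFP libraries, 12.8 and 25.2 with Oct4, 6.73 and 0.860 with Sox2, 17.4 and 42.3 with Klf4, and 19.5 and 13.2 with OSK. It overlapped GFP in all lines but Sox2 (log2 change -2.30, SE 0.61, adjusted p = 0.00636 in limma), and that call was lost without Sox2 replicate 2 (-1.27, limma adjusted p = 0.146), while without Sox2 replicate 1 the change was -3.33.

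The type II hair keratins KRT81 and KRT86 went opposite ways with Sox2. KRT86 (chr12:52249300-52309163, plus strand) had 106, 249.9 and 215 normalised counts in the GFP libraries, 75.5 and 65.2 with Oct4, 32.5 and 27.4 with Sox2, 157 and 121 with Klf4, and 57.5 and 53.9 with OSK. Oct4, Sox2 and OSK lay below GFP, and the Klf4 libraries overlapped GFP through GFP replicate 1. KRT86 fell with Oct4 (log2 change -1.34, SE 0.28, adjusted p = 0.0015 in limma), Sox2 (log2 change -2.54, SE 0.28, adjusted p = 2.34e-06 in limma) and OSK (log2 change -1.67, SE 0.28, adjusted p = 0.000194 in limma). With Klf4 it passed only without GFP replicate 1 (-0.37, limma adjusted p = 0.353, against -0.74, limma adjusted p = 0.0121).

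KRT81 (chr12:52285913-52291534, minus strand) had 44.7, 67.8 and 74.8 normalised counts in the GFP libraries, 87.1 and 109.9 with Oct4, 305 and 213 with Sox2, 91.4 and 131 with Klf4, and 51.0 and 34.1 with OSK. The Sox2 libraries were the highest by far. KRT81 was 4.15-fold above GFP with Sox2 (log2 change 2.05, SE 0.26, adjusted p = 9.82e-06 in limma), and OSK differed from Sox2 by -2.58 (SE 0.29, limma adjusted p = 2.36e-06). The Klf4 call (log2 change 0.83, SE 0.26, adjusted p = 0.0219 in limma) was lost without GFP replicate 1 (limma adjusted p = 0.0642) or Klf4 replicate 2 (limma adjusted p = 0.231). The Oct4 change (0.67, limma adjusted p = 0.0554) passed without GFP replicate 3 (limma adjusted p = 0.0385) or OSK replicate 2 (limma adjusted p = 0.0499). The OSK change (-0.54, limma adjusted p = 0.119) passed without GFP replicate 1 (-0.76, limma adjusted p = 0.0202).

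These loci are entangled, and the values of KRT81 and KRT86 are uncertain for that reason. The annotated span of KRT86 contains that of KRT81 on the opposite strand, and it overlaps the end of KRT7 by 2887 bases. Of their 50-base transcript sequences 43.7% (KRT81) and 37.5% (KRT86) also occur in another gene, mostly in each other. The pseudogene KRT87P, which is not counted as a member, lies in the same span and had 455, 506 and 568 normalised counts in GFP, 202 and 167 with Oct4, 76.3 and 82.2 with Sox2, 176 and 202 with Klf4 and 94.3 and 90.2 with OSK.

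Summed over the 17 hair keratins, the libraries had 1866, 2476 and 2549 normalised counts in GFP, 555 and 708 with Oct4, 461 and 384 with Sox2, 1062 and 1195 with Klf4 and 4312 and 3357 with OSK. All single-factor libraries lay below GFP and both OSK libraries above. The leading gene changed with the line. KRT38 led in GFP, KRT34 in both Oct4 and both Klf4 libraries, KRT81 with Sox2 (66.2 and 55.6%), and KRT34 with OSK, with KRT33B close behind. Of the 8 hair keratins tested, 5 were lower with Oct4, 7 with Sox2, 4 with Klf4 and 4 with OSK, and 0, 1, 2 and 2 were higher. Of all features 17.2%, 19.9%, 16.0% and 20.0% were lower and 20.1%, 21.7%, 17.6% and 19.7% higher, so the higher counts were near or below the background. The median log2 changes of the 8 were -1.57, -3.00, -0.72 and -1.10.

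Markers of the hair cortex, where these keratins are normally made, were low. Of 16 markers 5 could be tested, of which none was called with Oct4, 1 was higher and 1 lower with Sox2, 1 lower with Klf4, and 1 higher and 1 lower with OSK (for Oct4 the smallest limma adjusted p of the 5 was 0.0531). Of all features 16.0% to 21.7% were called per direction, and 1 of 5 is near that share. The whole list summed to 67.8 to 148 normalised counts in GFP, 51.5 to 88.2 with Oct4, 84.1 to 93.3 with Sox2, 77.5 to 89.1 with Klf4 and 134 to 144 with OSK. HOXC13, the homeobox regulator of hair keratins, had no read in GFP replicates 2 and 3 and at most 1.14 in any factor library. The keratin-associated protein KRTAP11-1 had no read outside GFP replicate 1. S100A3, a calcium-binding protein of the hair cuticle, had 75.9 and 96.8 with OSK against 29.8, 21.2 and 11.7 in GFP (log2 change 2.08, SE 0.45, adjusted p = 0.00141 in limma), a call lost without a filter on low values (limma adjusted p = 0.0684). KRTAP2-3, a keratin-associated protein, had 7.94, 17.2 and 20.4 in GFP and no read in the Klf4 and OSK libraries (log2 change -3.92, SE 0.75, adjusted p = 0.000551 in limma for OSK).

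**Figure D3:**
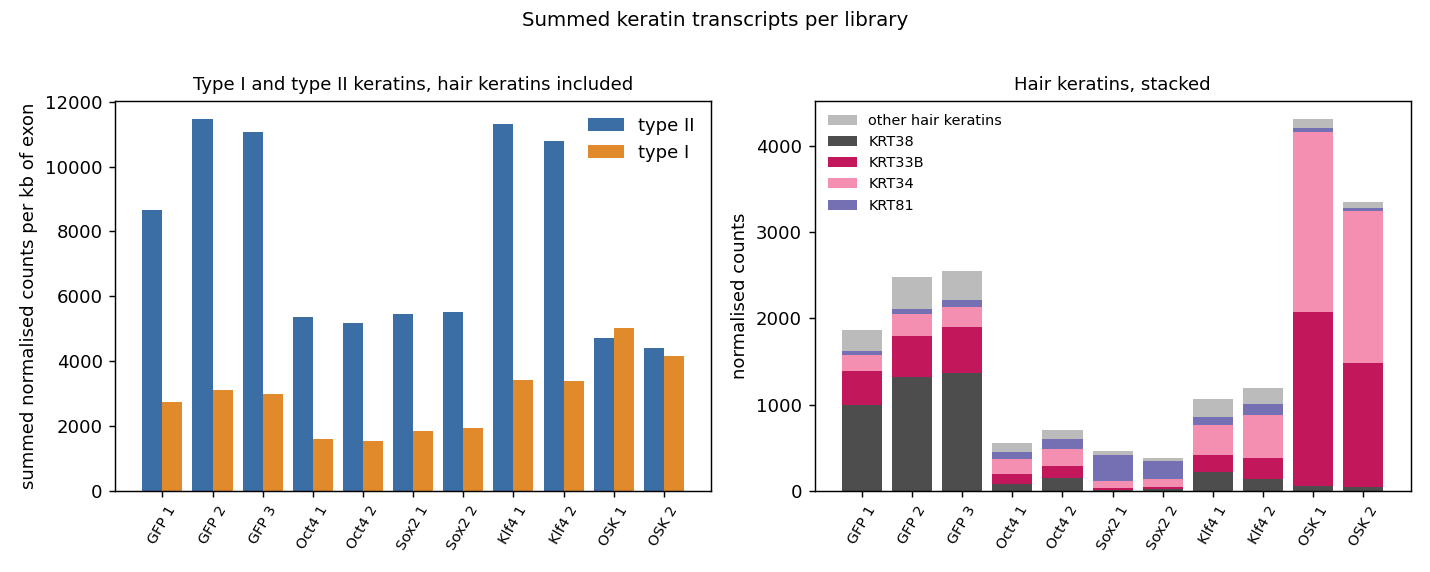
Left, summed normalised counts per kb of exon of type II and type I keratins (hair keratins included) in each library; right, normalised counts of the hair keratins stacked by gene. Type I and type II bars are of like height with OSK alone. KRT38 is the largest part of the hair keratin stack in GFP (53.2 to 53.4%), and KRT33B with KRT34 make up most of it in OSK.

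Because filaments need type I and type II proteins in equal number, the sums of both types, with hair keratins placed by protein type, were compared per kilobase of exon. The ratio of type I to type II transcripts was 0.315, 0.272 and 0.270 in the GFP libraries, 0.300 and 0.299 with Oct4, 0.341 and 0.352 with Sox2, 0.302 and 0.313 with Klf4 and 1.07 and 0.950 with OSK. Only with OSK was it near 1, and this rests on the division by exon length. Merged exons held 6881 bases for KRT8 and 4093 for KRT7, but 1607 for KRT33B and 1751 for KRT34. In plain normalised counts the OSK means were 7080 for type I and 21705 for type II keratins outside the hair group. The hair group had 3835, so type II was the largest sum there. The type II sum per kilobase was 4707 and 4392 with OSK against 8652, 11460.2 and 11061 in GFP, and the type I sum 5019 and 4170.1 against 2726, 3119.9 and 2990.1. KRT18 made up 58.6, 56.6 and 53.0% of the type I sum in GFP, 82.1 and 82.1% with Sox2 and 19.2 and 25.0% with OSK. In OSK the mean levels per kilobase were 1158 for KRT13, 1097 for KRT34, 1077 for KRT33B and 1002 for KRT18. These sums are a description with no test, and exon length is that of all annotated exons merged.

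All type I keratins but KRT18 lie on chromosome 17 (28 genes), and all type II keratins lie on chromosome 12 with KRT18 (27 genes). The hair type I genes KRT39 and KRT40 lie apart, 358956 bases before KRT33A. The other 9 run from KRT33A to KRT36 and are followed by KRT13, KRT15, KRT19, KRT9, KRT14, KRT16 and KRT17. In the hair stretch KRT33B and KRT34 rose with OSK, and KRT38, KRT32 and KRT36 fell. KRT31, between these groups, had an OSK log2 change of -0.13, limma adjusted p = 0.895. KRT36 and KRT13 are direct neighbours, 8434 bases apart, with OSK changes of -2.92 and 6.23. With Klf4 KRT13 and KRT16 rose, while KRT19, between KRT15 and KRT9, had 0.33, limma adjusted p = 0.707. KRT14 was high with Klf4 too, but it entered the test only through Klf4 and GFP replicate 1. Neighbouring genes of this stretch thus changed in opposite directions in the same line.

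**Figure D4:**
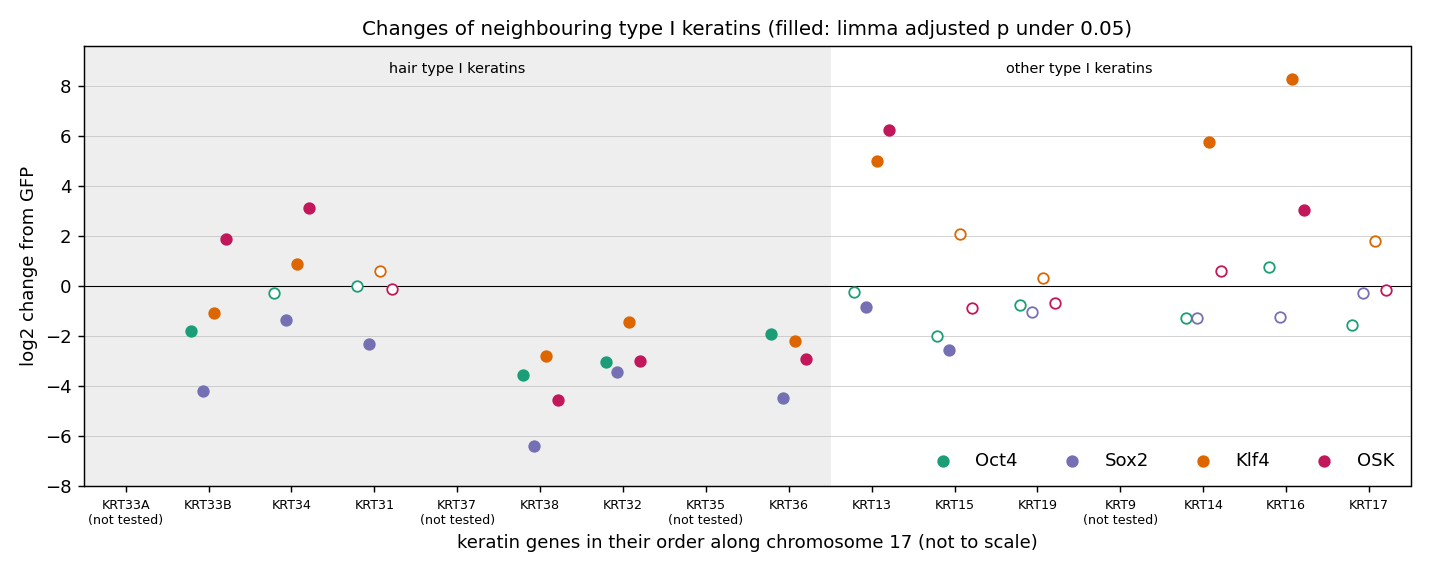
Log2 change from GFP (vertical axis) of the type I keratins of 1 chromosome 17 stretch, in gene order (horizontal axis, not to scale), for the 4 factor lines; filled points passed limma at an adjusted p under 0.05. KRT33B and KRT34 lie above 0 with OSK while KRT38, KRT32 and KRT36 lie below 0 in all lines, and KRT13, KRT14 and KRT16 lie above 5 with Klf4. KRT14 entered the test only through Klf4 and GFP replicate 1, so its Klf4 call is no result.

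OSK was also set against each single factor. Of the 21 tested keratins 10 differed from Oct4 (4 higher, 6 lower with OSK), against a background of 40.3% of all features. From Sox2 13 differed (8 higher, 5 lower), against 40.5%, and from Klf4 13 (3 higher, 10 lower), against 21.5%. By direction the backgrounds were 18.4% higher and 21.9% lower against Oct4, 20.0% higher and 20.5% lower against Sox2 and 9.56% higher and 11.9% lower against Klf4. KRT13, KRT33B and KRT34 were the 3 keratins higher with OSK than with Klf4. KRT80 was lower with OSK than with Klf4 (log2 change -1.64, SE 0.16, adjusted p = 1.76e-06 in limma), as were KRT7 (-1.04, limma adjusted p = 5.78e-06), KRT8 (-0.91, limma adjusted p = 1.97e-07) and KRT18 (-0.66, limma adjusted p = 1.87e-05). Among the single factors, 9 keratins differed between Oct4 and Sox2 (background 33.4%), 15 between Oct4 and Klf4 (41.7%) and 15 between Sox2 and Klf4 (40.8%). All 15 keratins that differed between Oct4 and Klf4 were lower with Oct4, where 20.0% of all features were lower and 21.8% higher. Of these KRT14, KRT15 and KRT17 reached 10 only in Klf4 libraries and GFP replicate 1. They thus had to be high with Klf4, and their calls are no result. The same holds for KRT14 and KRT15 between Sox2 and Klf4, and for KRT14 between OSK and Klf4. With Sox2 14 were lower than with Klf4 and 1 higher (backgrounds 20.7% and 20.1%), and with Oct4 6 were higher than with Sox2 and 3 lower (backgrounds 18.0% and 15.4%). A test over all 5 groups called 19 of the 21, where 65.7% of all features were called. The 19 include KRT14, KRT15 and KRT23, which entered the test only through the groups where they were high. Their calls in this test are no result.

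The OSK change differed from the summed log2 changes of the single factors for 10 keratins, 8 above and 2 below (KRT4 and KRT81), where 35.9% of all features differed, 15.6% above and 20.3% below. For 3 of the 8 above the outcome was fixed by the scale and is no result: the sums of KRT38, KRT32 and KRT36 (-12.75, -7.92 and -8.57) lay below the lowest change that log2(value + 1) allows from their GFP level (-10.25, -5.37 and -5.18). The other 5 were KRT33B, KRT34, KRT13, KRT7 and KRT86. Beside KRT33B and KRT34, it lay above the sum for KRT13 (2.28, SE 0.45, limma adjusted p = 0.000878) and KRT7 (1.38, SE 0.21, limma adjusted p = 7.8e-05). It lay below the sum for KRT81 (-4.09, SE 0.52, limma adjusted p = 1.62e-05). For KRT7 each single factor lowered the level and the sum of log2 changes was larger in size than the OSK change, whereas for KRT33B the direction itself differed. The factors were not at equal levels alone and in OSK. POU5F1 had 67326 and 66823 with Oct4 against 19020.3 and 19542 with OSK, and SOX2 29106 and 29141 with Sox2 against 17764 and 17582. The part of these levels in the comparisons of OSK with single factors or their sum was not tested.

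Proteins that anchor keratin filaments were examined from lists written from general knowledge. Median changes are given in the order Oct4, Sox2, Klf4 and OSK, and those of all tested features lay between -0.02 and -0.01. Of all features 20.1% higher and 17.2% lower with Oct4, 21.7% higher and 19.9% lower with Sox2, 17.6% higher and 16.0% lower with Klf4 and 19.7% higher and 20.0% lower with OSK were called, and the counts of the following lists are to be read against these shares. Desmosomes are the cell junctions to which keratins attach. Of 8 desmosome genes tested out of 13, 2 were higher and 2 lower with Oct4, 2 and 4 with Sox2, 1 and 3 with Klf4, and 1 and 6 with OSK. The 6 lower with OSK stood above the background of 20.0%, while 2 of 8 is near it. The median log2 changes were 0.01, -0.30, 0.02 and -0.69. DSP, the gene of desmoplakin, which binds keratin directly, had 3159, 3626 and 4016 normalised counts in the GFP libraries, 4150.1 and 4624 with Oct4, 5856 and 6458 with Sox2, 16759.7 and 15914 with Klf4, and 9364 and 9285 with OSK. It was highest with Klf4 (log2 change 2.19, SE 0.09, adjusted p = 6e-11 in limma), and OSK lay between Klf4 and the other lines (log2 change 1.38, SE 0.09, adjusted p = 5.71e-09 in limma). The plakophilin PKP2 was lower with OSK (log2 change -1.31, SE 0.09, adjusted p = 1.26e-08 in limma) and with Klf4 (log2 change -0.95, SE 0.09, adjusted p = 6.88e-07 in limma). The desmocollin DSC2 was lower in 3 lines, by -0.43 for Sox2, -0.89 for Klf4 and -1.54 for OSK (limma adjusted p of 0.00549, 1.23e-05 and 1.98e-08), and its Sox2 call was lost without Sox2 replicate 1 (limma adjusted p = 0.0501).

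Linkers and hemidesmosome proteins, which join keratins to the cell base, were all tested (12 of 12). With Oct4 3 were higher and 4 lower, with Sox2 3 and 3, with Klf4 5 and 2, and with OSK 4 and 4, where 2 or 3 of 12 is near the background of 16.0% to 21.7% per direction. The median log2 changes were -0.25, -0.01, 0.24 and 0.21. PLEC, the gene of the linker plectin, had 14645, 17766 and 18301 normalised counts in the GFP libraries, 14236 and 13697 with Oct4, 17466 and 16699 with Sox2, 64737 and 60848 with Klf4, and 22165 and 20842 with OSK. Its Klf4 libraries were the highest (log2 change 1.90, SE 0.09, adjusted p = 3.36e-10 in limma). EPPK1, the gene of epiplakin, a keratin-binding protein, rose with Klf4 (log2 change 3.21, SE 0.32, adjusted p = 1.18e-06 in limma) and, by less, with Oct4 and Sox2 (1.67 and 1.26, limma adjusted p = 0.000663 and 0.00471). ITGB4, the hemidesmosome integrin, had 11999.9, 13596 and 15016 normalised counts in GFP and 2178 and 2814 with Sox2 (log2 change -2.44, SE 0.10, adjusted p = 3.95e-11 in limma). ITGB4 was also lower with Oct4 and OSK, by -1.47 for Oct4 and -1.54 for OSK (limma adjusted p of 1.78e-08 and 1.01e-08), and higher with Klf4 (log2 change 0.35, SE 0.10, adjusted p = 0.0164 in limma), a call lost without either Klf4 library.

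Of 12 other intermediate filament genes tested out of 16, 3 were higher and 2 lower with Oct4, 6 and 1 with Sox2, 5 and 2 with Klf4, and 3 and 3 with OSK. Again 2 or 3 of 12 is near the background of 16.0% to 21.7% per direction. The median log2 changes were -0.04, 0.38, 0.33 and -0.41. SYNM, the gene of synemin, a large filament protein that assembles with vimentin or desmin, rose in all 4 lines, by 1.98 for Oct4, 0.83 for Sox2, 1.18 for Klf4 and 1.69 for OSK (limma adjusted p of 6.95e-10, 8.56e-06, 3.36e-07 and 3.87e-09). LMNB1, a nuclear lamin, also rose in all 4 lines, by 1.02 for Oct4, 1.20 for Sox2, 1.75 for Klf4 and 1.26 for OSK (limma adjusted p of 9.43e-06, 1.26e-06, 3.07e-08 and 8.34e-07). SYNC, the gene of syncoilin, was lower with OSK (log2 change -1.34, SE 0.20, adjusted p = 4.37e-05 in limma) and higher with Klf4 (log2 change 0.58, SE 0.20, adjusted p = 0.0327 in limma), the latter call being lost without GFP replicate 1 or either Klf4 library.

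Of 20 transcription and splicing regulators of epidermal and hair keratins 13 were tested: 3 were lower and 0 higher with Oct4, 8 and 1 with Sox2, 2 and 2 with Klf4, and 3 and 1 with OSK. Each lower count includes TP63, which entered the test through GFP alone. With a background of 16.0% to 20.0% lower, the counts lower with Oct4, Klf4 and OSK are near it, and 8 with Sox2 is above it. The median log2 changes were -0.20, -1.03, -0.17 and -0.37. Without GFP replicate 1 and OSK replicate 1, 5 of 10 tested were lower with Sox2. ELF3, an epithelial ETS factor, had 111, 70.8 and 76.8 normalised counts in the GFP libraries, 13.9 and 12.6 with Oct4, 12.3 and 12.0 with Sox2, 159.6 and 152 with Klf4, and 59.6 and 66.0 with OSK. It was lowest with Oct4 and Sox2 (log2 change -2.59, SE 0.25, adjusted p = 7.57e-07 in limma, and log2 change -2.70, SE 0.25, adjusted p = 3.49e-07 in limma) and higher than GFP with Klf4 (log2 change 0.87, SE 0.25, adjusted p = 0.0145 in limma), a call lost without GFP replicate 2 or 3 or either Klf4 library. KLF5, a factor of proliferating epithelia, had 956 and 1088 with OSK against 2264, 2198 and 2290.2 in GFP (log2 change -1.14, SE 0.07, adjusted p = 2.92e-09 in limma), and it was also lower with Sox2 and Klf4, by -0.34 for Sox2 and -0.71 for Klf4 (limma adjusted p of 0.000809 and 8.53e-07). MSX2, a homeobox factor of hair follicles, was lower with Sox2 (log2 change -1.40, SE 0.18, adjusted p = 9.09e-06 in limma).

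Markers of the RPE and of other cell types moved with some of these results, and their part in them was not tested. RPE markers summed to 4633 to 5337 normalised counts with Oct4, 2666 to 2731 with Sox2, 8619 to 10424 with Klf4 and 5908 to 6298 with OSK, all below GFP. In these lines 7, 7, 4 and 8 of 13 were called lower while 3, 1, 2 and 2 were called higher. Of all features 17.2%, 19.9%, 16.0% and 20.0% were lower and 20.1%, 21.7%, 17.6% and 19.7% higher, so the higher counts were near or below the background. The lowest sums were those of Sox2, where KRT38 was also lowest. Fibroblast markers, 7 of 10 tested, summed to 14159 to 16774 in GFP, 11042 to 14189.6 with Oct4, 13334 to 16222 with Sox2, 7361 to 8660.0 with Klf4 and 5198 to 6034 with OSK. The sum was mostly PDGFRB and COL1A1, while DCN, a defining fibroblast gene, had at most 5.96 in any library. Melanocyte markers, 4 of 6 tested, summed to at most 82.4.

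The other 34 keratins had too few reads for a test: 9 of type I, 16 of type II and 9 hair keratins. KRT71, of the inner root sheath, and KRT222 had no read in any library. Of the other 32, 26 had their highest value in GFP replicate 1, where the median of the 34 was 6.95 and the highest was KRT78 at 31.8. Outside GFP replicate 1 and OSK replicate 1 the highest value of any of them was 6.97, and 30 of the 34 had at most 3 reads in all 9 libraries. They include KRT5, KRT1, KRT6A, KRT6B and KRT20 and all 8 keratins of the inner root sheath. Differences among the lines were not detectable for these genes at this depth. KRT23, a type I keratin of low level that was tested, had 11.9, 6.07 and 16.5 normalised counts in the GFP libraries, 5.81 and 8.01 with Oct4, 2.24 and 2.57 with Sox2, 3.47 and 1.14 with Klf4, and 1.08 and 0 with OSK. It entered the test through 2 GFP libraries alone, so it had to be lower elsewhere, and its OSK call, 1 of the 10 lower with OSK, is no result. Without GFP replicate 1 KRT23 did not reach the level for a test.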

How the data were processed

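The deposited table gave 60605 features in 11 libraries, named by symbol. Its values are a signal: the authors' read counts divided by 1 factor per library before they were deposited, as the numbers themselves show, since 100% of those up to 200 are whole reads within 0.0061. RNA was selected with oligo(dT) and sequencing libraries used an NEBNext Ultra II kit, per the labels' protocols. STAR 2.7.1a and featureCounts 1.6.2 are named in the submitters' processing notes, as are human and mouse genome builds; their settings and the use of strand are not given in the sources used here.

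The main test was limma 3.58.1 (lmFit, eBayes with trend; R 4.3.3). It ran on log2(value + 1), a scale that makes changes of low genes look smaller. Features with 10 or more normalised counts in any 2 libraries entered (18828). All 11 libraries shared 1 fit with a mean per group (6 residual and 9.21 prior degrees of freedom), with Benjamini-Hochberg adjustment over all features tested and a threshold of 0.05. Groups came from the sample titles. Where no library of a group had more than 3 reads, a fold against it is a lower bound computed at 3 reads per library. edgeR 4.0.16 and DESeq2 1.42.0 on the recovered reads were alternatives, as were other filters and scalings, a replicate block and libraries left out. The fit was tested on simulated data.

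Keratins were named with values where a group mean reached 100 or a change from GFP was called with a log2 size of at least 1; from each partner list the 3 most changed genes with a mean of at least 100 were named. TGM1, FLG, SBSN, KLK5, TP63, S100A3 and KRTAP2-3, among the markers, were chosen after their values were seen. The members and lists were chosen with earlier results of these data known. Gene spans and exon lengths came from GENCODE 29 (GRCh38), where all 55 keratins were matched by symbol. Shared sequence is the share of a gene's 50-base transcript sequences found in transcripts of another gene. Promoters are the 250 bases before the RefSeq start on GRCh38.p14.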

Additional observations from a re-analysis of the deposited data

How the results depend on the processing

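Over the 21 alternatives run, 33 of the 48 called changes of named keratins from GFP kept their direction and their side of the threshold, 15 lost the call in at least 1, and none changed sign. Of the 28 uncalled changes 12 were called in at least 1 alternative and 11 had the other sign in at least 1. The fit without a filter on low values, which tested all 55 keratins and many more features near 0, gave fewer calls: 4 against 10 for OSK and Oct4, 7 against 13 for OSK and Sox2, 6 against 13 for OSK and Klf4, and 8 against 15 for Oct4 and Klf4. In the partner and regulator lists it gave 12 against 19 called genes with Oct4 and 17 against 28 with Sox2. No filter also ended the call of KRT13 against the sum of single factors (limma adjusted p = 0.0712). Scalings moved the median of all features by less than 0.1.

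Leaving out 1 library gave from 8 to 11 keratins called with Oct4 against GFP, 10 to 12 with Sox2, 9 to 14 with Klf4 and 11 to 15 with OSK. The counts ran from 7 to 11 for OSK and Oct4, 10 to 14 for OSK and Sox2, 11 to 15 for OSK and Klf4, 7 to 12 for Oct4 and Sox2, 11 to 15 for Oct4 and Klf4, and 12 to 15 for Sox2 and Klf4. They ran from 9 to 13 for the sum of single factors and from 17 to 19 over 5 groups. The lists ran from 14 to 20 genes with Oct4, 21 to 28 with Sox2, 15 to 22 with Klf4 and 19 to 25 with OSK. A line left with 1 library was assumed to vary like the other groups.

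The uncalled values with a sign that turned were small or rested on few reads, and the cause was not tested. KRT14 with OSK was -0.62 with edgeR TMM, -0.63 with edgeR and median-of-ratios factors, and -0.65 with DESeq2. KRT16 with Oct4 was -0.31, -0.32 and -0.32 in the same fits. Without GFP replicate 1 and OSK replicate 1, KRT10 with Sox2 was -0.023, KRT16 with Sox2 0.051, KRT31 with Oct4 -0.19 and KRT4 with Sox2 0.77. Leaving out 1 library gave log2 changes of -0.037 to 0.21 for KRT10 with Oct4, -0.023 to 0.045 for KRT10 with Sox2, -0.016 to 1.88 for KRT14 with OSK, -0.28 to 2.03 for KRT16 with Oct4, -2.27 to 0.051 for KRT16 with Sox2, -0.13 to 0.018 for KRT18 with Klf4, -0.44 to 0.49 for KRT31 with Oct4, -0.026 to 1.21 for KRT31 with Klf4, -0.40 to 0.14 for KRT31 with OSK, -0.82 to 1.95 for KRT4 with Oct4 and -0.64 to 0.77 for KRT4 with Sox2.

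The replicate numbers did not pair the libraries: the differences between replicates 1 and 2 correlated across groups at -0.07 to 0.04, except 0.41 between GFP and OSK. With the replicate block the counts called against GFP were 9 with Oct4, 12 with Sox2, 12 with Klf4 and 12 with OSK, and KRT14 with OSK was -0.016, KRT16 with Oct4 -0.28 and KRT31 with OSK 0.14. The block ended the calls of KRT15 with Sox2, KRT16 with OSK, KRT32 with Klf4, KRT36 with Oct4 and KRT80 with OSK (limma adjusted p = 0.0616, 0.0659, 0.122, 0.0569 and 0.116). It added those of KRT16 with Sox2 and KRT81 with Oct4 (0.0358 and 0.0467).

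With 2 libraries per line and low reads, changes of keratins under about 10 normalised counts could not be resolved. GFP replicate 1 and OSK replicate 1 hold reads of many genes with no read elsewhere, and the part of these reads in low GFP and OSK levels was not tested. The 4 most abundant keratins rest on far more reads.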
